A study of Mus musculus with 2 samples.

Results

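The enzymes that remove superoxide and peroxides were followed as a set of 10 genes, taken by name: the peroxiredoxins Prdx1, Prdx2, Prdx3 and Prdx4, thioredoxin (Txn1) and its reductase (Txnrd1), the glutathione peroxidases Gpx1 and Gpx4, and the superoxide dismutases Sod1 and Sod2. Probes were assigned through the RefSeq accession that the array files give. Of the 10 genes, 8 received a probe, 1 each, among 21052 gene probes on an array; Prdx2 and Sod1 received none, so their levels were not analysed here.

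The tested RNA came from EB5 cells, a mouse embryonic stem (ES) cell line grown on gelatin without feeder cells. They had been transfected with Klf4 siRNA together with pCAGEGFP-IP, a plasmid that gave puromycin resistance, kept for 24 h, and then selected in puromycin for another 24 h. Each of 2 such samples (siKlf4 ES cells, n = 2) was labelled with Cy3 and hybridised on its own array against a Cy5-labelled Universal Mouse Reference RNA, an equal pool of RNA from 11 cultured lines that include lymphocytes, alveolar macrophages, hepatocytes and myoblasts beside cells of embryo, kidney, mammary gland, skin and testis. ES cells without Klf4 siRNA were not among the samples, so each ratio sets siKlf4 ES cells against this pool and carries no estimate of what the siRNA did. The labels do not say whether the 2 samples are separate cultures, and p-values then measure only the spread between these arrays, which may be technical.

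Cells make superoxide as a by-product of respiration and of dedicated oxidases. Superoxide dismutases turn it into hydrogen peroxide, which peroxiredoxins, glutathione peroxidases and catalase reduce to water. Peroxiredoxins are recharged by thioredoxin, thioredoxin by its selenium-containing reductase, and glutathione peroxidases by glutathione; both routes draw their electrons from NADPH. The transcription factor Nrf2 (gene Nfe2l2), held down by Keap1, drives many of these genes through antioxidant response elements.

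The probes were 60 bases long. Those of the 3 members whose ratios lay furthest from 0 are shown whole, and the first 30 bases are shown for Prdx1 and Gpx1, since each has a relative on the other side of the reference. All are printed 5′ to 3′ in the sense of the transcript, as the array files give them.
Gpx4: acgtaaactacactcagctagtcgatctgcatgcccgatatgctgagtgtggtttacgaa
Sod2: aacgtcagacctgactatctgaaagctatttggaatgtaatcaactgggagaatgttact
Prdx4: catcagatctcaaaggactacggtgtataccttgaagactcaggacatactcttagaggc
Prdx1, first 30 bases: aggatctacttttctagtgctggttttata
Gpx1, first 30 bases: ccgatgcctttccacctaatgaaaggtggt
The GC content of the 8 member probes lay between 36.7% and 46.7%, around the median of 41.7% for all gene probes. The longest run of bases shared by any 2 member probes was 7, and 0 of the 8 shared a run of 16 bases with another gene probe on the array.

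A single promoter among the members held the exact letters TGACTCAGC, an antioxidant response element core, and it belonged to Prdx1. It is shown as the sole match of these letters among the members. The sequence below is from RefSeq (build GRCm38.p6, chr4:116685349-116685598, plus strand), the 250 bases before the annotated start, with the match in capitals, where it reads on the opposite strand and begins 133 bases before the start site.
Prdx1 promoter: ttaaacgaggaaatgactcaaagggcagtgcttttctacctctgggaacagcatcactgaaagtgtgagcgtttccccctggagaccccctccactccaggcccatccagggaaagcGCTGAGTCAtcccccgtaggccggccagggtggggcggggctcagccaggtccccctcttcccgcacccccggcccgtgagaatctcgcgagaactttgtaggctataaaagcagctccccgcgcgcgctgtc
In windows of 300 bases (250 before and 50 after the start), searched on both strands, TGACTCAGC was present in 0.454% of 32851 promoter windows. The wider form TGACNNNGC, which includes it, was present in 12.4% of windows and for 14.0% of 27025 genes. It was found in 3 of 15 member windows, for 3 of the 10 member genes (Prdx1, Sod1 and 1 of the Txnrd1 windows), and for 4 of 18 genes of a Nrf2 pathway list. A match describes these letters and is not a measured binding site.

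The arrays carried signal for every measured member. Each of the 8 probes exceeded a limit set at percentile 95 of the 162 negative control spots, in either channel of either array, and 0 were saturated. The limit stood at 155 and 178 intensity units above local background in the ES channel, and at 40.9 and 58.4 in the reference channel. Of 9 ES cell markers with a probe, 8 were higher in the siKlf4 ES cells and Fgf4 did not pass (0.0033, and lower at -0.17 with median centring in place of loess). Esrrb passed without exceeding the limit in either channel. Among the higher genes were Sox2 (log2 ratio of ES cells over reference 5.69), Zfp42 (5.01) and Pou5f1 (2.86), transcription factors of pluripotent cells; without background correction Sox2 stood at 4.46 and Pou5f1 at 1.76, and Nanog received no probe. Klf4, the siRNA target, stood at 0.51 ± 0.11 (SD, n = 2). That did not exceed 0.52, the largest absolute mean log2 ratio at a negative control spot. Fibroblast markers were lower in 10 of 10 measured cases and macrophage markers in 7 of 8, at median log2 ratios of -2.93 and -2.04. The pool contains such cells, and in bulk RNA fewer cells of a type and less RNA per cell cannot be told apart.

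Of the 8 member genes, 3 were higher in siKlf4 ES cells than in the reference, 3 were lower and 2 did not pass the test (limma on the log2 ratio against 0, adjusted over 21028 probes, adjusted p under 0.05 with the same sign on both arrays). Over all probes, 63.2% passed in either direction, 31.7% as higher and 31.5% as lower, so 3 of 8 in each direction is close to what the arrays gave in general. In a joint fit, 115 of the 162 negative control spots passed the same adjusted p. A passed test alone therefore does not show a difference in RNA. At 2-fold or more, 1 member was higher (Gpx4) and 1 lower (Prdx4), where 5.08% and 5.19% of all probes were. The members' median log2 ratio was -0.025, beside -0.0073 for all probes. The peroxiredoxins and the glutathione peroxidases each had members on both sides of the reference.

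**Figure D1:**
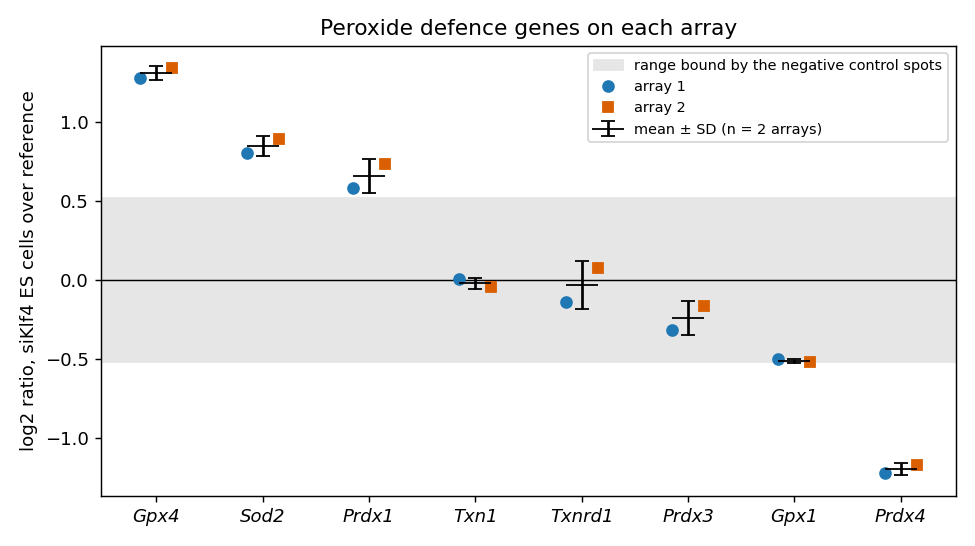
Log2 ratio of siKlf4 ES cells over the reference pool (vertical axis) for the 8 peroxide defence genes with a probe, on array 1 (circles) and array 2 (squares), with the mean and SD of the 2 arrays; the grey band reaches to the largest absolute mean ratio at a negative control spot, 0.52. Gpx4, Sod2 and Prdx1 stood above the band on both arrays, Prdx4 stood below it on both, and Gpx1 lay at its lower edge.

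Among the superoxide dismutases, Sod2 was the measured member. Sod2 is the manganese enzyme of the mitochondrial matrix. Its spot read 7813 and 10173 intensity units above background in the ES cells on arrays 1 and 2, against 4758 and 4848 in the reference. Before normalisation, signal was higher in the ES channel on both arrays. The normalised log2 ratios were 0.81 and 0.90, with a mean of 0.85 ± 0.062 (SD, n = 2), which is 1.80-fold higher in the ES cells (limma, adjusted p = 2.26e-05). This placed Sod2 at percentile 93.3 of all probes. On a list of further peroxide and superoxide enzymes, extracellular Sod3 stood at 0.31 and Ccs, the copper chaperone of Sod1, at -0.25; both passed but stayed inside 0.52, the largest negative control ratio, and both were chosen after their values were seen. Without background correction Sod3 stood at 0.076.

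The glutathione peroxidases stood on opposite sides of the reference. Gpx4, the selenoenzyme that reduces lipid hydroperoxides within membranes and protects cells from ferroptosis, read 2616 and 3311 units in the ES cells, against 1201 and 1235 in the reference. These readings were higher in the ES channel before normalisation. The log2 ratios of 1.28 and 1.34 gave a mean of 1.31 ± 0.043 (SD, n = 2), or 2.48-fold higher, the highest of the 8 members (limma, adjusted p = 4.08e-06). Gpx1, the cytosolic selenoenzyme that reduces hydrogen peroxide, read 11717 and 14240 units in the ES cells, against 17331 and 18195 in the reference. Here the reference readings were the higher ones before normalisation. Its log2 ratios of -0.50 and -0.52 averaged -0.51 ± 0.013, so the reference was 1.43-fold above the ES cells (limma, adjusted p = 0.000109). The Gpx1 ratio passed the test but did not exceed 0.52, the largest absolute mean ratio at a negative control spot. The Gpx4 ratio exceeded that of Gpx1 by 1.78 and 1.86 log2 units on arrays 1 and 2, a difference given without a test. Of the other members of the family, Gpx2, the form of the gut lining, was higher at 0.42 ± 0.011, which also lay inside 0.52. Gpx3 (-0.0014) and Gpx5 (-0.072) did not pass; with median centring in place of loess Gpx3 passed as higher (0.20) and Gpx5 as lower (-0.15).

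The peroxiredoxins formed a graded series, with Prdx1 above the reference, Prdx3 slightly below and Prdx4 well below. Prdx1, an abundant cytosolic peroxidase, read 2114 and 2630 units in the ES cells, against 1575 and 1496 in the reference. The ES readings were the higher ones before normalisation. The log2 ratios were 0.59 and 0.74, a mean of 0.66 ± 0.11 (SD, n = 2) or 1.58-fold higher (limma, adjusted p = 0.000127). Prdx3, the form of the mitochondrial matrix, read 452.9 and 587.7 units in the ES cells, against 539.9 and 575.3 in the reference. These raw ranges overlapped. After normalisation, Prdx3 stood at -0.31 and -0.16, with a mean of -0.24 ± 0.11, 1.18-fold higher in the reference (limma, adjusted p = 0.00857), well inside the range of the negative control spots.

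Prdx4, the peroxiredoxin of the endoplasmic reticulum that supports oxidative protein folding, was the lowest member. Its spot read 1642 and 2174 units in the ES cells, against 4238 and 4528 in the reference. The ES readings were the lower ones before normalisation. The log2 ratios of -1.23 and -1.17 averaged -1.20 ± 0.038 (SD, n = 2), which puts the reference 2.30-fold above the ES cells (limma, adjusted p = 5.23e-06), at percentile 4.07 of all probes. The Prdx1 ratio exceeded that of Prdx4 by 1.81 and 1.91 log2 units and that of Prdx3 by 0.90 on each array. Sod2 and Prdx3 both act in the mitochondrial matrix, yet the Sod2 ratio was 1.12 and 1.06 log2 units above that of Prdx3. These differences between genes were not tested.

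Peroxiredoxins outside the set widened the same range. Prdx6, which has a single active cysteine and also acts on phospholipids, read 4288 and 5094 units in the ES cells, against 2666 and 2659 in the reference. It was 1.75-fold higher in the ES cells, with a log2 ratio of 0.81 ± 0.0028 (SD, n = 2). Prdx5, found in mitochondria, peroxisomes and cytosol, read 586 and 648 units in the ES cells, against 2092 and 2071 in the reference. The reference stood 3.34-fold above the ES cells, at -1.74 ± 0.036, lower than any of the 8 members (limma, adjusted p = 1.66e-06). The ratios of Prdx6 and Prdx5 were 2.53 and 2.57 log2 units apart.

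**Figure D2:**
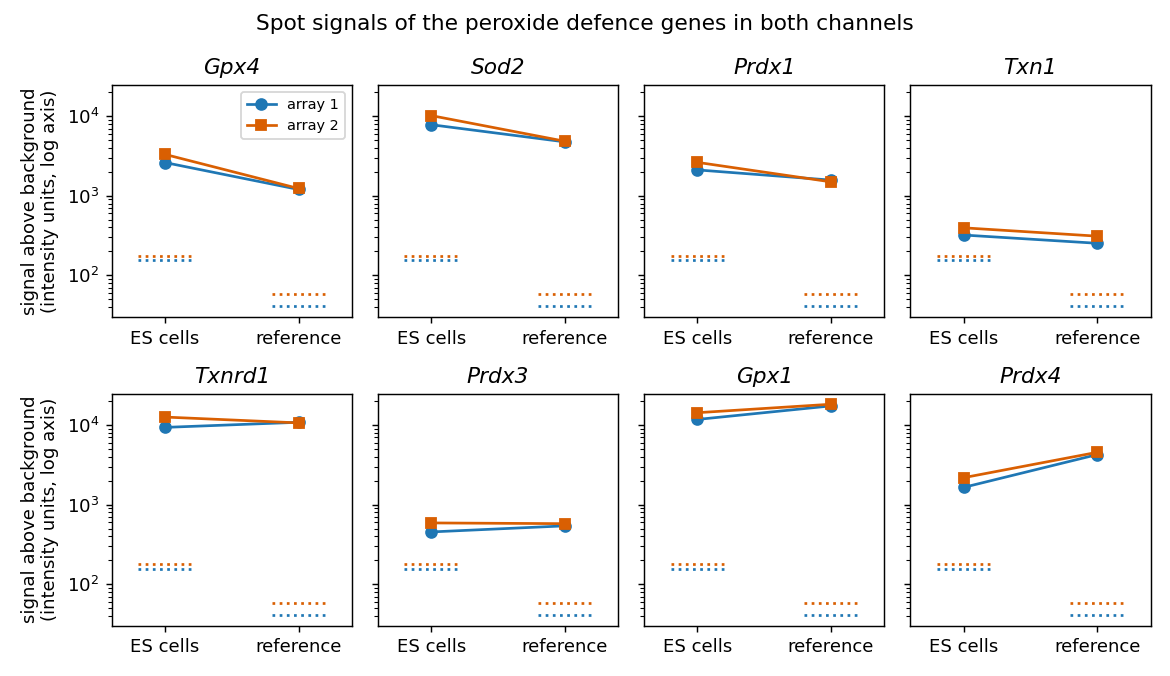
Signal above local background in intensity units (log axis) for each peroxide defence gene in the siKlf4 ES cells (left) and the reference (right), before normalisation between channels, with circles for array 1 and squares for array 2; dotted lines mark percentile 95 of that channel's negative controls. For Gpx4 the lines slope down to the right (2616 and 3311 in the ES cells, 1201 and 1235 in the reference), for Prdx4 they slope up, and Txn1 lies closest to the dotted lines.

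Thioredoxin and its reductase gave no ratio that passed. Txn1, the small dithiol protein that recharges peroxiredoxins and ribonucleotide reductase, read 321.6 and 396.3 units in the ES cells, against 253.3 and 311.4 in the reference. The ES readings were higher before normalisation, and the normalised log2 ratios were 0.0054 and -0.045. The mean was -0.020 ± 0.036 (SD, n = 2; limma, adjusted p = 0.669), with a 95% confidence interval of the moderated mean from -0.12 to 0.076. Txn1 was the dimmest member relative to the negative control limit, 2.07 and 2.23 times that limit in the ES channel. The scanner software's own error on its log ratio, in the authors' deposited files, was 0.37 and 0.42 log2 units, the largest of the 8.

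Txnrd1, the cytosolic selenoenzyme that passes electrons from NADPH to thioredoxin, read 9313 and 12555 units in the ES cells, against 10795 and 10607 in the reference. The channels overlapped, and the arrays disagreed on the sign. Its log2 ratios were -0.14 and 0.077, with a mean of -0.030 ± 0.15 and an interval from -0.18 to 0.12 (limma, adjusted p = 0.683). Its SD was at percentile 94.2 of the SDs of all probes, the widest of the members. Both intervals lay within 2-fold in either direction. They measure only the spread between these 2 arrays, which had the same dye orientation. A larger difference in the RNA is therefore not excluded, and smaller differences remain possible.

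Partners of the thioredoxin system were mostly near the reference or below it. Of 13 measured genes with a thioredoxin fold or a glutaredoxin role, 7 were lower, 2 higher and 4 did not pass. Their median log2 ratio was -0.14. The shares over all probes were 31.5% lower and 31.7% higher. Beyond 0.52, the largest absolute mean ratio at a negative control spot, lay 2 lower genes (Glrx and Txndc5) and 0 higher genes. The other called genes of this list, among them Glrx2, Txnrd2, Txnl1 and Txndc9, lay inside that range. Glrx, the cytosolic glutaredoxin that removes glutathione from protein cysteines, was lowest at -1.32 ± 0.049 (SD, n = 2), 2.49-fold higher in the reference. Txndc5, a disulfide isomerase of the endoplasmic reticulum, stood at -0.73, and mitochondrial Glrx2 at -0.39. The mitochondrial reductase Txnrd2 (-0.29) and Txnl1 (-0.30) were lower as well; Txnl1 did not pass without background correction (limma, adjusted p = 0.0790). Txndc9 was higher at 0.19 with its brighter probe and at 0.45 with another; the brighter probe did not pass without background correction (adjusted p = 0.0542), with an offset of 10 (adjusted p = 0.111) or with median centring in place of loess (adjusted p = 0.446). The mitochondrial thioredoxin Txn2 (0.089) and the thioredoxin inhibitor Txnip (0.044), chosen after their values were seen, did not pass. Txn2 passed as higher without background correction (0.11) and with the scanner software's processed signals (0.12). With median centring in place of loess it had the opposite sign (-0.13) and did not pass.

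Catalase stood apart among the remaining scavengers. Cat, the haem enzyme of peroxisomes, read 951 and 1112 units in the ES cells, against 408 and 434 in the reference. It was 2.34-fold higher in the ES cells at 1.22 ± 0.022 (SD, n = 2; limma, adjusted p = 4.38e-06), and at 0.80 without background correction. On the list of 12 further peroxide and superoxide enzymes with a probe, 5 were higher, 5 lower and 2 did not pass, at a median of -0.037. Among all probes, 31.7% were higher and 31.5% lower. Srxn1, the sulfiredoxin that repairs overoxidised peroxiredoxins and a Nrf2 target, was lower at -0.38. Msrb1, a selenoprotein that reduces oxidised methionine, was lower at -0.44. Srxn1 and Msrb1 lay inside 0.52, the largest negative control ratio.

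Genes that make or renew glutathione lay close to the reference. Of 11 with a probe, 2 were higher, 4 lower and 5 did not pass, and 0 reached 2-fold in either direction. The shares over all probes were 31.7% higher and 31.5% lower. The lower genes include Slc7a11 (-0.24), which did not exceed the limit of the negative controls in either channel. Slc7a11 did not pass without background correction (limma, adjusted p = 0.0622). It also failed when loess was replaced by centring on the median (limma, adjusted p = 0.261). Gclc, the catalytic subunit of the rate-limiting ligase of glutathione synthesis, was higher at 0.55 ± 0.029 (SD, n = 2), and Gss, which completes the tripeptide, at 0.23. Chac2, which degrades glutathione, was lower at -0.83 ± 0.014. The amino acid carriers Slc1a4 (-0.36) and Slc3a2 (-0.14) were lower too. Gss, Slc1a4, Slc3a2 and Slc7a11 lay inside 0.52, the largest negative control ratio. Without background correction Chac2 stood at -0.35 and Slc1a4 at -0.12. Gsr, the NADPH-dependent reductase that returns oxidised glutathione to its working form, chosen after its value was seen, did not pass (-0.010); with median centring in place of loess it passed as lower, at -0.24.

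Suppliers of NADPH lay on both sides of the reference. Of 12 with a probe, 6 were higher, 5 lower and 1 did not pass, at a median of 0.20. Among all probes, 31.7% were higher and 31.5% lower. The folate enzymes Mthfd1, which is cytosolic, and Mthfd2, which is mitochondrial, were higher at 1.81 ± 0.021 and 0.79 ± 0.0098 (SD, n = 2). Mthfd1 read 993 and 1123 units in the ES cells, against 268 and 275 in the reference. Without background correction its ratio was 1.09. Tkt, the transketolase of the pentose phosphate route, stood at 0.99 ± 0.15 and Nadk, the kinase that makes NADP, at 0.74. Mitochondrial Idh2, a source of NADPH in the matrix, was lower at -1.01 ± 0.0044, and Aldh1l2, a mitochondrial folate dehydrogenase, at -0.74. G6pdx, the entry enzyme of the pentose phosphate route and chosen after its value was seen, was lower at -0.29. The G6pdx ratio lay inside 0.52, the largest negative control ratio.

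**Figure D3:**
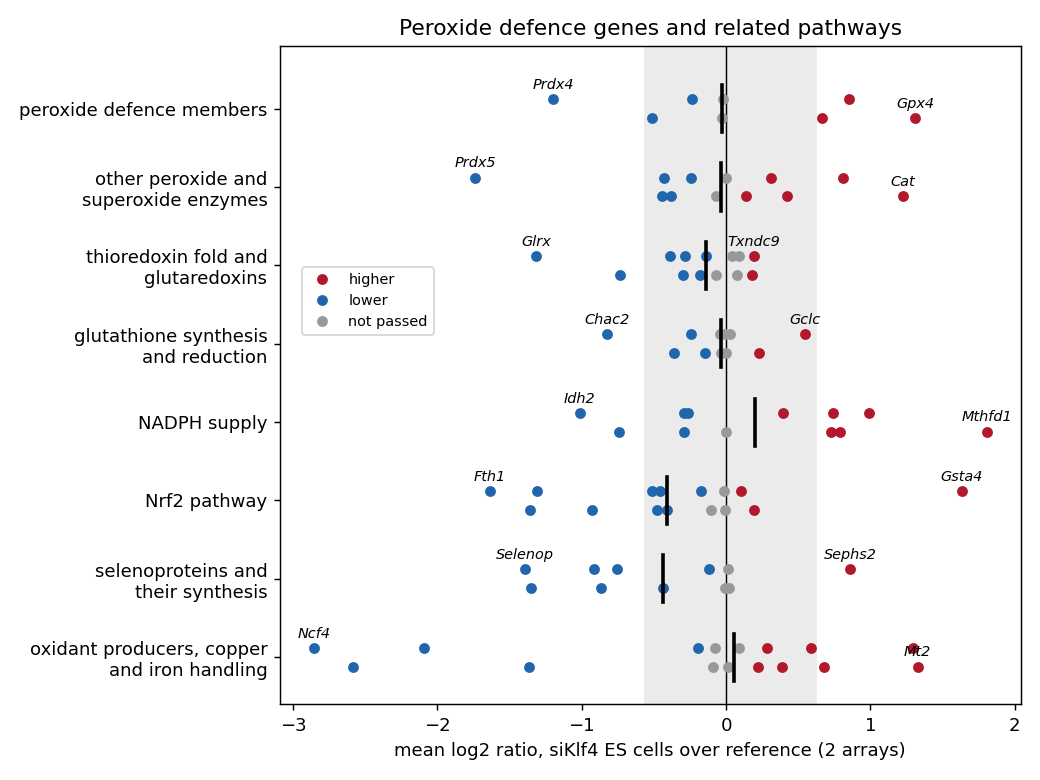
Mean log2 ratio of siKlf4 ES cells over reference (horizontal axis, 2 arrays) for each measured gene of the peroxide defence set and of 7 related lists, coloured by call, with a black bar at each median and the lowest and highest gene named; grey marks the range between the 10th and 90th percentiles of all probes, -0.56 to 0.63. The medians of the Nrf2 list (-0.41) and the selenoprotein list (-0.44) lie left of the others, and the widest spread, from -2.86 to 1.33, is in the list of oxidant producers.

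Genes of the Nrf2 pathway list, chosen with earlier results of these data known, were lower more often than higher. Of 15 with a probe, 3 were higher, 9 lower and 3 did not pass, at a median of -0.41. Over all probes, 31.7% were higher and 31.5% lower. Beyond the largest negative control ratio of 0.52 lay 1 higher gene (Gsta4) and 4 lower genes (Ephx1, Fth1, Aox1 and Mafk). Over all probes, 12.1% were called higher and 10.8% lower beyond it. Of the 4, Aox1 and Mafk were dim and Fth1 was saturated in the reference, as given below. Nqo1, Hmox1, Gstm1 and Nfe2l1 did not lie beyond 0.52. Nqo1, a quinone reductase and textbook Nrf2 target, was lower at -0.51 ± 0.063 (SD, n = 2), and haem oxygenase Hmox1 at -0.41 ± 0.069. Gstm1, a glutathione transferase, stood at -0.48 and Nfe2l1, a relative of Nrf2, at -0.46. Ephx1, the microsomal epoxide hydrolase, was lower at -1.31, and at -0.61 without background correction. Gsta4, a transferase for lipid peroxidation aldehydes, went the other way at 1.64 ± 0.00012, which is 3.11-fold higher in the ES cells. Neither Aox1 nor Mafk exceeded the limit of the negative controls in the ES channel of either array. Their reference signals, 136 and 139 units for Aox1 and 106 and 105 for Mafk, were below the ES limit as well, so no fold is given. The ferritin subunit gene Fth1, chosen after its values were seen, was lower at -1.64, a ratio that takes the reference at its saturated reading on both arrays.

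Among the regulators, Nfe2l2, chosen after its value was seen, stood at 0.11 ± 0.0068 (SD, n = 2) and passed narrowly (limma, adjusted p = 0.0487). It did not pass without background correction (adjusted p = 0.136), with an offset of 10 (adjusted p = 0.0555) or with the negative controls as background (adjusted p = 0.107). Keap1 (-0.10) and the repressor Bach1 (-0.012) did not pass; with median centring in place of loess they passed as lower, at -0.27 and -0.18.

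Gpx1, Gpx4 and Txnrd1 contain selenium, and a wider selenoprotein list was set beside them. Of 11 such genes with a probe, 1 was higher, 7 lower and 3 did not pass, at a median of -0.44. Among all probes, 31.7% were higher and 31.5% lower. The higher gene was Sephs2, which makes the selenium donor for selenocysteine, at 0.86 ± 0.15 (SD, n = 2). Selenop, the secreted selenium carrier made mainly by liver, was lowest at -1.39 ± 0.060, followed by mitochondrial Selenoo at -1.35; without background correction they stood at -0.71 and -0.54. Selenok (-0.75) and Selenos (-0.44), both of the endoplasmic reticulum, were lower. Of these, Selenos lay inside 0.52, the largest negative control ratio. The deiodinase gene Dio1 was lower by a small margin (-0.12) and did not pass with the scanner software's processed signals (adjusted p = 0.0552) or with an offset of 10 (adjusted p = 0.0515). Selenon did not reach the limit in the ES channel, and no fold is given for it.

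Genes that generate oxidants or handle redox metals held the ratios furthest from 0 among the 7 lists. Of 16 with a probe, 7 were higher, 5 lower and 4 did not pass, at a median of 0.053. Among all probes, 31.7% were higher and 31.5% lower. Ncf4, a cytosolic subunit of the phagocyte NADPH oxidase, read 271.8 and 290.5 units in the ES cells, against 1864 and 1866 in the reference. The reference was 7.25-fold above the ES cells, at -2.86 ± 0.069 (SD, n = 2). Its membrane partner Cyba was lower at -1.37 ± 0.086. Macrophage markers moved with both genes, 7 of 8 being lower in the ES cells; their part in these ratios was not tested. The oxidase gene Xdh, whose product can release superoxide, stood at -2.10, and the plasma copper oxidase Cp at -2.58. Without background correction Ncf4, Xdh and Cp stood at -1.72, -0.94 and -1.87. Nox4 did not reach the limit in the ES channel, and no fold is given; it did not pass without background correction (-0.043).

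The highest ratios on that list belonged to metal-handling genes. Mt2, a metallothionein that binds zinc and copper, read 28402 and 32689 units in the ES cells, against 11904 and 11380 in the reference. It was 2.51-fold higher at 1.33 ± 0.033 (SD, n = 2), while its neighbour Mt1, chosen after its value was seen, did not pass at 0.093 but passed as higher without background correction (0.15). Tfrc, the transferrin receptor for iron uptake, was higher at 1.30 ± 0.28.

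Over the 7 lists together, 90 of 131 listed genes had a probe, and 26 of them were higher, 42 lower and 22 did not pass. At 2-fold or more, 5 were higher and 12 lower, where 5.08% and 5.19% of all probes were. The share of higher genes was near that over all probes (31.7%) and the share of lower genes was above it (31.5%), a description without a test. Slc7a11, Mafk, Aox1, Selenon and Nox4 are counted as lower without exceeding the limit in the ES channel. The lists were chosen with earlier results of these data known.

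The member calls held under each setting with a test, though not every setting could move a ratio. Across 12 settings besides the one reported, every member kept its call where a test was possible. The 6 members that passed kept their direction. Rescaling brightness between arrays, a variance trend, the signal filters and averaging a gene's probes leave each member ratio as reported. At most their p-value could change. Either array alone could not turn a passed direction, since passing required the same sign on both. Prdx4 ran from -1.35 to -1.01, Gpx4 from 1.12 to 1.35 and Sod2 from 0.78 to 0.90. Prdx1 ran from 0.47 to 0.74, Gpx1 from -0.56 to -0.45 and Prdx3 from -0.41 to -0.13. Both arrays had the same dye orientation, so a dye effect cannot be told apart from a difference in RNA at any member.

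**Figure D4:**
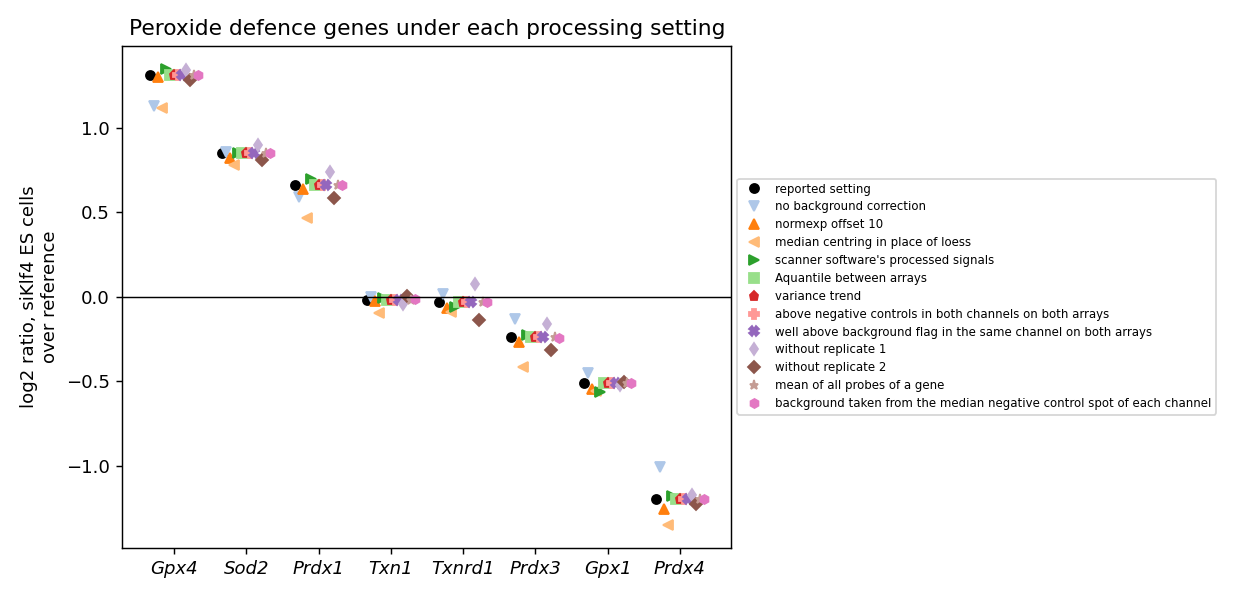
Log2 ratio of siKlf4 ES cells over reference (vertical axis) for each peroxide defence gene under the reported setting (black circle) and 12 others (coloured symbols), including each array alone. The 6 genes that passed stay on their side of 0 throughout, and Txn1 and Txnrd1 lie around 0, from -0.098 to 0.0054 and from -0.14 to 0.077. Several of the settings leave the ratios as reported.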

How the data were processed

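Per the file headers, the authors' 2-colour scanner files came from Agilent Feature Extraction A.7.5.1 and hold spot intensity values (mean signals, local background medians, and processed signals, for which the headers list a background subtraction step and a dye normalisation step with LOWESS parameters). The deposited log10 ratios are of red over green processed signal, checked within 0.001 for 100% of gene probes. How the authors made the log10 values of the deposited series table is not stated; for 99.65% of its 21050 rows the difference between arrays equalled that of the scanner ratios, with the sign turned, within 0.001.

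Mean signals were corrected with limma 3.58.1 (R 4.3.3) by normexp on local background (offset 50) and loess within arrays, control spots at weight 0, and expressed as log2 ratios, ES over reference. Outlier spots were left out (24 probes), which left 21028, and 10410 received 1 symbol through a mouse RefSeq gene table (used only to name probes). Ratios were tested against 0 with lmFit and eBayes (1 residual and 4.32 prior degrees of freedom) and Benjamini-Hochberg adjustment. The fit was tested on simulated data. The reference is 1 pool without a measured spread of its own. Where a gene had more than 1 probe, the brightest stood for it. A limit at the 95th percentile of negative control spots marks dim probes. At most 6 called genes above that limit, and 2 not above it in the ES channel, were named per list; Gpx3, Gpx5, Keap1 and Bach1, and genes marked so in the text, were chosen after their values were seen. Of 162 negative control spots, 115 passed the same adjusted p in a joint fit, and 0.52 was their largest absolute mean log2 ratio. The members and lists were chosen with earlier results of these data known. Array number limits the precision.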

Additional observations from a re-analysis of the deposited data

How the results depend on the processing

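No call among the 8 members or of the member counts changed in any setting with a test. Some of these settings left the member ratios as reported and could alter at most the p-value. Without background correction, the probes past 2-fold numbered 510 (higher) and 467 (lower), against 1068 and 1092 as reported. With median centring in place of loess, Sesn2 stood at -0.076, Gpx3 at 0.20, Ggt1 at -0.21, Nox4 at 0.021 and Fgf4 at -0.17, each with the sign opposite to that reported; the cause was not tested. Over genes of the lists, ES cell markers and Klf4, 15 combinations of gene and setting gained a call and 23 lost one. Over the 7 lists, the genes called ranged from 23 to 27 higher and from 35 to 47 lower. Leaving out an array leaves 1, which gives ratios and no test, so no count was computed: Prdx1 was 0.59 and 0.74, Prdx3 -0.31 and -0.16, Prdx4 -1.23 and -1.17, Txn1 0.0054 and -0.045, Txnrd1 -0.14 and 0.077, Gpx1 -0.50 and -0.52, Gpx4 1.28 and 1.34, and Sod2 0.81 and 0.90. The background from negative control spots and the comparison with their largest ratio were chosen after seeing the data. No paired analysis was possible because the arrays form 1 group. Signal limits Txn1 and Prdx3 most, the members nearest the negative control spots.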
